A study of Drosophila melanogaster with 12 samples.

Results

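The 10 genes described here are regulators of the cell division cycle in *Drosophila melanogaster*: the cyclins CycA, CycB, CycB3, CycD and CycE, the cyclin-dependent kinase Cdk1, the Cdc25 phosphatases stg and twe, the anaphase activator fzy and the mitotic kinase polo. They were taken by symbol from a table of 14001 genes, which holds all 10. Expression was measured by RNA sequencing of whole bodies from a strain that is sensitive to avermectins, labelled as wild type, and from a strain resistant to these insecticides. Third-instar larvae and adults of each strain gave 4 groups of 3 libraries. The labels give no sex, no age of the adults, no alleles of either strain and no source of the replicates, so the p-values speak to the differences among these 12 libraries, part of which may be technical. Values are FPKM, in which fragments are divided by transcript length and by the size of the library, so levels of different genes can be set side by side per length.

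Cell division is driven by kinases that act only when bound to a cyclin. CycD and CycE act before and at the start of DNA replication. CycA, CycB and CycB3 bind Cdk1 and carry cells into and through mitosis and meiosis, once a Cdc25 phosphatase has removed inhibitory phosphates from Cdk1. The kinase polo acts in spindle assembly and mitotic exit, and fzy, the fly Cdc20, directs the anaphase promoting complex to destroy the mitotic cyclins. In the larva dividing cells lie mainly in the imaginal discs, the brain and the young gonads, while in the adult they lie mainly in the gonads and the gut, and the female germline also loads its eggs with the messengers of many of these genes.

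The low FPKM values lay on steps of single reads, which gave library depths estimated at between 11.1 and 12.6 (in units of 1e6 reads), with 12997 to 13452 genes detected in each. The fewest reads behind a member's value were an estimated 52.8, for twe in sensitive larvae replicate 1. Stage markers separated the libraries, since 8 larval markers summed to 46201 to 86014 FPKM in larvae and 76.0 to 200.7 FPKM in adults. In whole bodies, fewer cells of a type and less RNA per cell cannot be told apart. No library is a gonad, disc or brain, so the tissue that carries each messenger was not measured. Levels of 13 ovary, 14 testis, 8 imaginal disc and 6 neuroblast markers are therefore given beside the results.

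The members are spread over the genome. On dm6, CycA lies at 3L:11826719-11833578, CycB at 2R:22803521-22806948, CycB3 at 3R:24867934-24870816, CycD at X:15906822-15909676 and CycE at 2L:15727581-15748150. Cdk1 lies at 2L:10384739-10386262, stg at 3R:29251826-29255800 and polo at 3L:20309654-20313466. The genes twe, at 2L:16259414-16261877, and fzy, at 2L:16310956-16313097, are 49.1 kb apart. Gene bounds of CycA, CycE, twe and fzy overlap those of genes on the opposite strand, but the shared exon bases make up 0 to 4.12% of each member's exons. The sources used here do not say whether counting used strand, so reads from these stretches cannot be told apart.

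The mitotic cyclins CycB and CycA were the most abundant members in adults, and CycB showed the widest gap between the stages. CycB stood at 16.27, 14.05 and 14.96 FPKM in sensitive larvae and at 26.97, 23.40 and 24.31 FPKM in resistant larvae. In sensitive adults it stood at 449.71, 282.21 and 284.24 FPKM, and in resistant adults at 272.24, 491.76 and 136.67 FPKM, each time for replicates 1 to 3. The lowest adult library was thus far above the highest larval one. The ratio of the group means, adult to larva, was 22.4 in the sensitive and 12.1 in the resistant strain, and the log2 differences of (FPKM + 1) were 4.37 ± 0.20 and 3.36 ± 0.39 (SE, adjusted p 2.764e-07 and 4.72059e-05).

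CycA, whose protein is destroyed before that of CycB in mitosis, rose between the stages in the same way. It was at 10.15, 11.81 and 10.37 FPKM in sensitive larvae and at 25.90, 20.48 and 24.65 FPKM in resistant larvae. Its adult values were 200.30, 130.79 and 127.06 FPKM in the sensitive and 132.97, 231.44 and 57.40 FPKM in the resistant strain. Larvae and adults did not overlap in either strain, with log2 differences of 3.68 ± 0.20 and 2.31 ± 0.43 (adjusted p 6.44942e-07 and 0.00146082).

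CycB3, a B-type cyclin needed for female meiosis and anaphase, rose less. Sensitive larvae held 6.66, 5.10 and 5.92 FPKM and sensitive adults 78.62, 46.87 and 39.86 FPKM. Resistant larvae held 15.24, 13.05 and 10.70 FPKM and resistant adults 38.80, 77.81 and 17.15 FPKM, so that the stages did not overlap in either strain. The log2 differences were 2.97 ± 0.24 and 1.47 ± 0.46 (adjusted p 1.02152e-05 and 0.0235958). Its call in the resistant strain ended without resistant larvae replicate 2 or 3, or without resistant adults replicate 1 (adjusted p 0.0577495, 0.0588307 and 0.0700871).

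Of the cyclins that act in G1 and S phase, CycE rose in both strains, while CycD was called in the sensitive strain only and not after median-of-ratios scaling, which divides each library by the median ratio of its genes to their geometric mean over the libraries. CycE, the partner of Cdk2 in DNA replication and in the endocycles of polyploid cells, had the lowest mean of all members in both larval groups, with 2.56, 2.87 and 2.19 FPKM in sensitive and 5.88, 2.54 and 4.21 FPKM in resistant larvae. In adults it was at 46.04, 29.32 and 28.56 FPKM in the sensitive and 26.01, 55.95 and 10.64 FPKM in the resistant strain. Its log2 differences between the stages were 3.30 ± 0.21 and 2.38 ± 0.53 (adjusted p 1.97956e-06 and 0.0053165). CycD, the partner of Cdk4 in growth and cell cycle entry, was at 4.26 to 6.88 FPKM in sensitive larvae and 11.30 to 20.96 FPKM in sensitive adults. In the resistant strain its larvae, at 9.61 to 10.69 FPKM, lay inside the range of the adults, 7.87 to 22.08 FPKM. The CycD log2 differences were 1.21 ± 0.26 and 0.31 ± 0.32 (adjusted p 0.00300916 and 0.443212), and the first was 0.60 once scaled (adjusted p 0.0595243).

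Cdk1, the kinase these mitotic cyclins bind, differed least between the stages. It was at 15.83, 20.56 and 17.03 FPKM in sensitive larvae and at 20.15, 16.37 and 23.03 FPKM in resistant larvae. Its adult values were 40.19, 26.92 and 27.63 FPKM in the sensitive and 25.66, 47.34 and 9.84 FPKM in the resistant strain. Resistant larvae and adults overlapped, and sensitive ones did not. The log2 differences were 0.78 ± 0.19 and 0.22 ± 0.47 (adjusted p 0.00599637 and 0.72218), near the medians of all genes tested, 0.62 and 0.28. After median-of-ratios scaling they were 0.12 and -0.055 (adjusted p 0.586112 and 0.913406).

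The Cdc25 phosphatases are stg, which sets the timing of mitosis in embryos and discs, and twe, which is needed for meiosis in both sexes. In larvae stg was at 6.77, 9.57 and 8.06 FPKM in the sensitive and 20.25, 11.51 and 16.34 FPKM in the resistant strain. In adults it was at 40.36, 18.93 and 19.63 FPKM in the sensitive and 28.79, 49.01 and 12.48 FPKM in the resistant strain. Only the sensitive larvae lay apart from their adults, with log2 differences of 1.505 ± 0.28 and 0.71 ± 0.43 (adjusted p 0.00141812 and 0.19657). The levels of twe were lower than those of stg in all 12 libraries. Its larvae were at 2.44, 2.97 and 3.23 FPKM in the sensitive and 6.34, 3.97 and 6.41 FPKM in the resistant strain. Its adults were at 24.48, 11.73 and 10.62 FPKM in the sensitive and 12.46, 21.51 and 7.12 FPKM in the resistant strain. Stages did not overlap for twe in either strain, with log2 differences of 2.01 ± 0.29 and 1.06 ± 0.35 (adjusted p 0.000324277 and 0.0250108). The second call ended without resistant larvae replicate 1 or 2, or resistant adults replicate 1 or 2 (adjusted p 0.0552429, 0.118088, 0.0569222 and 0.0555125).

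The mitotic exit regulators rose in the sensitive strain. The anaphase activator fzy was at 8.49, 8.90 and 10.59 FPKM in sensitive larvae and 47.27, 44.69 and 42.32 FPKM in sensitive adults. In the resistant strain it was at 18.69, 23.26 and 17.89 FPKM in larvae and 29.80, 63.66 and 11.37 FPKM in adults. The sensitive stages lay far apart and the resistant stages overlapped, with log2 differences of 2.15 ± 0.14 and 0.48 ± 0.52 (adjusted p 2.57347e-06 and 0.468211). The kinase polo was the most abundant member in resistant larvae, at 39.42, 36.10 and 34.97 FPKM, against 15.74, 18.31 and 18 FPKM in sensitive larvae. Its adults were at 91.64, 57.00 and 58.68 FPKM in the sensitive and 57.23, 99.27 and 29.21 FPKM in the resistant strain. The log2 differences of polo were 1.90 ± 0.20 and 0.57 ± 0.37 (adjusted p 4.72823e-05 and 0.216975).

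**Figure D1:**
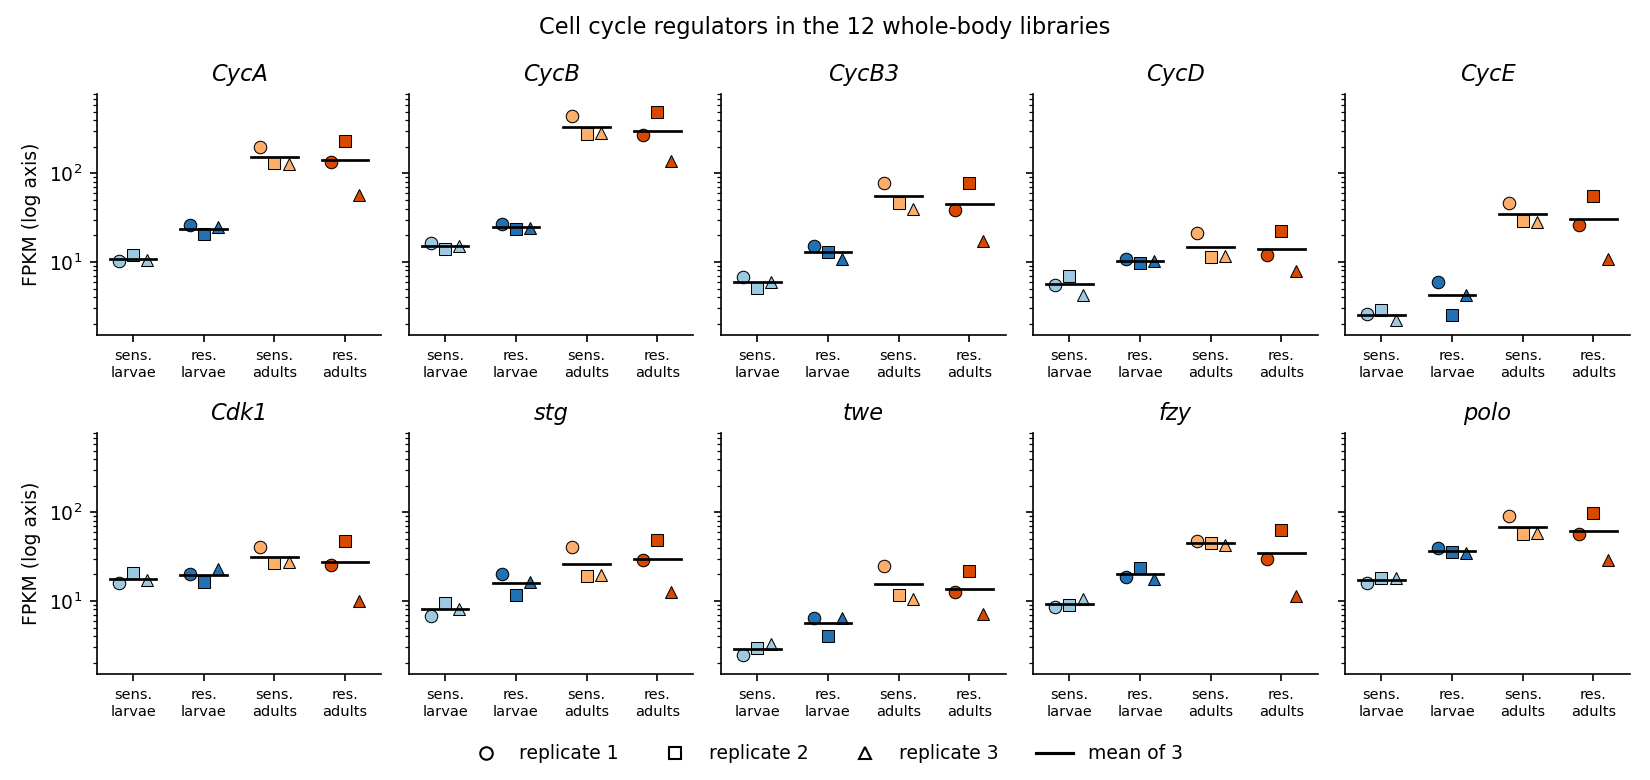
FPKM of the 10 members (log axis) in each of the 12 libraries, by group, with a line at the mean of 3 libraries. CycB, CycA and CycE sit far higher in adults than in larvae, Cdk1 differs least, and resistant adults replicate 3 (triangle) is the lowest of its group in every panel.

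The comparison of the stages asked how adults differ from larvae within each strain. In the sensitive strain 10 of 10 members were called higher in adults, where 55.7% of all genes tested were. After median-of-ratios scaling 8 of them (all but CycD and Cdk1) were also called, where 3371 of 11644 genes were higher. All 10 had groups that did not overlap, against 59.4% of genes that were higher in this way. The members' median log2 difference was 2.08, against 0.62 over 11644 genes. In the resistant strain 5 of 10 were higher, where 34.7% of genes were, namely CycA, CycB, CycB3, CycE and twe. The same 5 were called after scaling, where 3396 of 12013 genes were higher. These 5 were also those without overlap between the stages, against 38.2% of genes. The median of the 10 members was 0.88, against 0.28 over 12013 genes. The resistant count rested on single libraries, being 10 without resistant adults replicate 3 and 3 without resistant adults replicate 1 or without resistant larvae replicate 2. Ovary markers moved with these results: 13 of 13 were higher in sensitive adults and 12 of 13 in resistant adults, and their sum went from 119.5 to 166.2 FPKM in sensitive larvae to 16689 to 18878 FPKM in sensitive adults. In the resistant strain the ovary sum was 15.6 to 20.9 FPKM in larvae and 10120 to 11958 FPKM in adults. Most of the adult sums came from the yolk protein genes Yp1, Yp2 and Yp3. Their means were 5433, 4493 and 4006 FPKM in sensitive adults and 2606, 2518 and 2083 FPKM in resistant adults. In sensitive larvae Yp3 was at a mean of 132.3 FPKM. The oocyte messengers osk, bcd and swa were at 0 to 0.25 FPKM in larvae. The ovary marker grk was at 6.60 to 10.17 FPKM in sensitive and 9.95 to 12.86 FPKM in resistant larvae. Testis markers were higher in 4 and lower in 1 of 12 tested in sensitive adults, or higher in 0 and lower in 5 after scaling, and higher in 6 of 12 in resistant adults. Disc markers were lower in 1 of 6 tested in sensitive adults, or 4 after scaling, and in 6 of 8 in resistant adults. Neuroblast markers were higher in 2 and lower in 1 of 4 tested in sensitive adults, or higher in 1 and lower in 2 after scaling. They were lower in 5 of 6 in resistant adults. The part of these tissues in the members' difference was not tested.

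**Figure D2:**
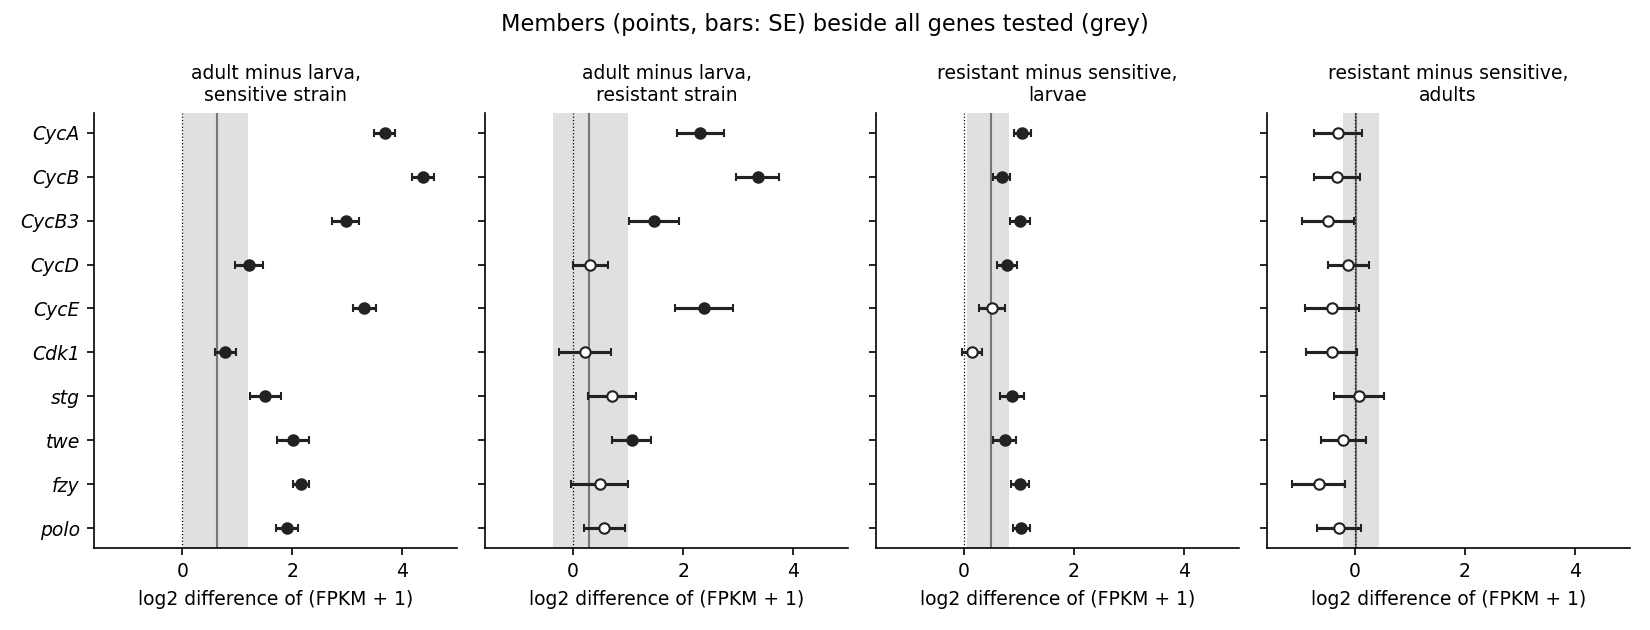
Log2 differences of (FPKM + 1) of the 10 members with their SE (points and bars, filled where the adjusted p was under 0.05) in 4 comparisons, beside the median (grey line) and the middle 50% (grey band) of all genes tested. CycB, CycA, CycE, CycB3 and twe lie right of the band in both stage comparisons, and in adults no member was called between the strains.

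The make-up of the group differed between the stages. CycB exceeded CycA 2.21-fold ± 0.05 in sensitive and 2.18-fold ± 0.17 in resistant adults, but 1.41-fold ± 0.21 and 1.06-fold ± 0.08 in the larvae (SD, n = 3). The ratio of CycB to Cdk1 was 0.863 ± 0.173 in sensitive larvae and 1.27 ± 0.19 in resistant larvae, against 10.7 ± 0.5 in sensitive and 11.6 ± 2.0 in resistant adults. So Cdk1 and CycB, a kinase and its cyclin subunit, had like levels in larvae, and the cyclin was about an order of magnitude above the kinase in all 6 adult libraries. The ratio of CycE to CycD was 0.464 ± 0.049 and 0.408 ± 0.143 in sensitive and resistant larvae and 2.42 ± 0.20 and 2.02 ± 0.60 in the adults, so their order was inverted. These ratios were chosen after the values were seen and carry no test.

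For the shares the test is an exact permutation test of 3 against 3 libraries, two-sided, whose smallest p is 0.1, so it cannot pass 0.05. The share of twe in the summed FPKM of stg and twe was 26.3% ± 2.5 in larvae and 37.0% ± 1.7 in adults of the sensitive strain (SD, n = 3). The resistant strain had 25.9% ± 2.2 in larvae and 32.3% ± 3.5 in adults. The adult mean was higher by 10.8 and 6.46 percentage points, and adults did not overlap with larvae in either strain (exact p 0.1 each, 0.2 adjusted over 8 tests). CycB3 held 18.5% ± 1.9 of the 3 mitotic cyclins in sensitive larvae and 21.1% ± 2.7 in resistant larvae. In adults its share was 9.94% ± 1.0 in the sensitive and 8.86% ± 0.80 in the resistant strain, lower in all 6 adult libraries than in any larval one (exact p 0.1 for each strain, 0.2 adjusted). Between the strains both shares overlapped within each stage (exact p 0.2 to 0.8).

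**Figure D3:**
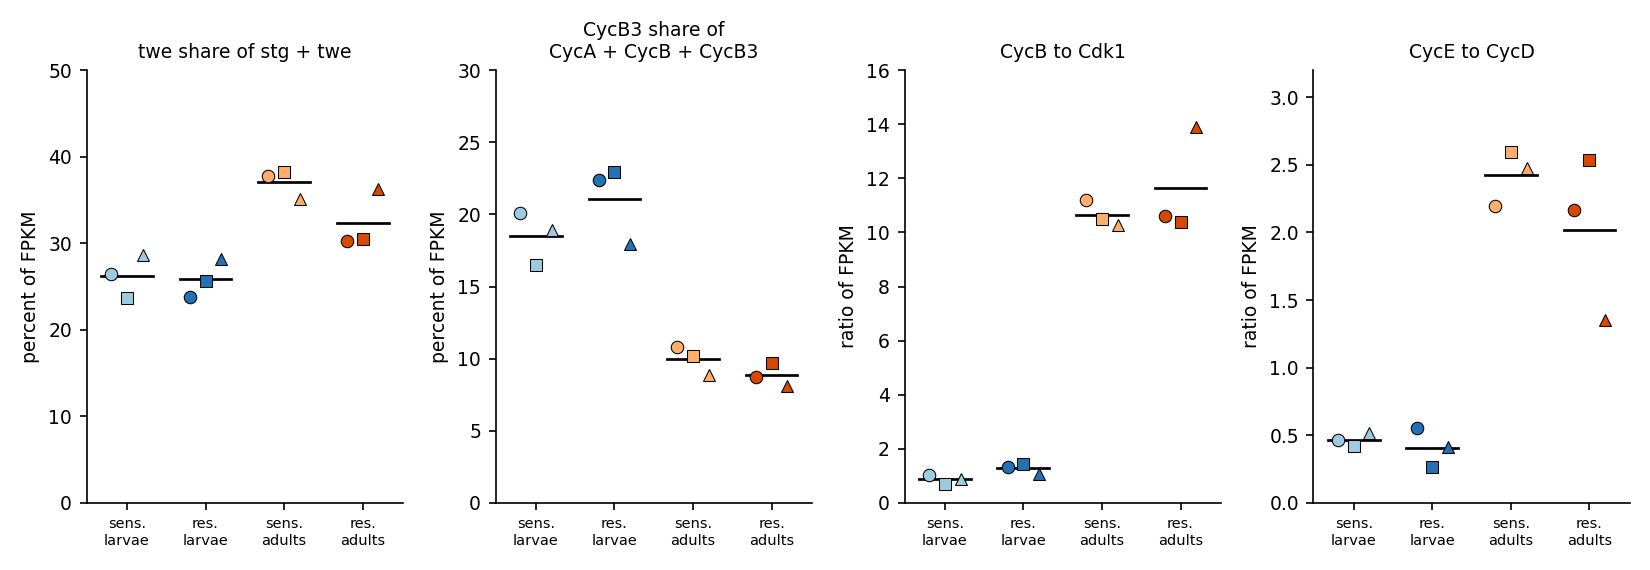
Share of twe in stg and twe, share of CycB3 in the 3 mitotic cyclins (percent of summed FPKM), and the ratios of CycB to Cdk1 and of CycE to CycD in each library, with a line at each group mean and circles, squares and triangles for replicates 1, 2 and 3. All 4 measures separate larvae from adults with no overlap in either strain, and CycB goes from about the level of Cdk1 in larvae to 10.3 to 13.9 times it in adults.

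The order of levels was steeper in adults. In sensitive adults the means ran from CycB and CycA over polo, CycB3, fzy, CycE, Cdk1, stg and twe to CycD, and CycB lay above CycA and CycA above polo in all libraries of the group. Neighbours from polo downwards overlapped. In resistant adults the same 6 genes led in the same order, and each of the leading 5 lay above the next in all 3 libraries, although the ranges over the unequal libraries overlapped. In sensitive larvae Cdk1, polo and CycB led at means of 17.8, 17.4 and 15.1 FPKM and overlapped, while CycE and twe came last at 2.54 and 2.88 FPKM. In resistant larvae polo led at 36.8 ± 2.3 FPKM, above CycB at 24.9 ± 1.9 FPKM in all libraries.

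Resistant adult libraries differed from each other by more than the means of the adult groups did, and the members moved together. In resistant adults 10 of 10 members were highest in replicate 2 and lowest in replicate 3, an order that 43.6% of 11645 genes with a mean of at least 1 FPKM shared. The ratio of replicate 2 to replicate 3 ran from 2.81 for CycD to 5.60 for fzy, and the SD of log2(FPKM + 1) over the 3 libraries had a median of 0.98 over the members against 0.28 over all these genes. In sensitive adults 10 of 10 members were highest in replicate 1, as were 48.8% of 11319 genes. There the ratio of the highest to the lowest library ran from 1.12 for fzy to 2.31 for twe. The median SD of the members in sensitive adults was 0.38, against 0.24 over all these genes. The larval members were tighter, with a median SD of 0.15 in the sensitive and 0.21 in the resistant strain. There all genes with a mean of at least 1 FPKM had medians of 0.18 and 0.25.

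The oocyte messengers osk, bcd and swa showed the same order of libraries. The posterior determinant osk was at 169.47, 79.02 and 68.76 FPKM in sensitive and 123.48, 168.51 and 65.55 FPKM in resistant adults. The anterior determinant bcd was at 25.02, 12.56 and 11.93 FPKM and at 12.62, 22.89 and 5.60 FPKM, and swa, which localises bcd, at 87.12, 66.49 and 57.79 FPKM and at 51.44, 95.17 and 24.97 FPKM. Each was thus highest in sensitive replicate 1 and in resistant replicate 2 and lowest in resistant replicate 3, as the members were. The ovary marker grk did not share the resistant order, at 16.42 to 17.24 FPKM in resistant adults. The yolk protein gene Yp1, made in the fat body and the follicle cells, ran the other way among resistant adults, at 2417.02, 2040.70 and 3361.27 FPKM. Of the 13 ovary markers 8 shared the resistant order, against 1 of 14 testis markers, 1 of 6 neuroblast markers and 0 of 8 disc markers. Among sensitive adults replicate 1 was highest for 9 of 13 ovary, 6 of 8 disc, 4 of 6 adult and 3 of 14 testis markers. The testis sum was 636.7, 688.5 and 664.7 FPKM in resistant adults and 220.7, 345.3 and 333.4 FPKM in sensitive adults. The ovary sum, most of it yolk protein genes, was 10120, 10663 and 11958 FPKM in resistant adults, highest where the members were lowest. In sensitive adults it was 18794, 18878 and 16689 FPKM. Resistant replicate 3 also held the highest sum of 6 adult markers, 8705 FPKM against 2253 to 3831 FPKM in the other adults, of which 7069 FPKM were Act88F, an actin of the flight muscle. The part of these tissues in the members' spread was not tested.

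**Figure D4:**
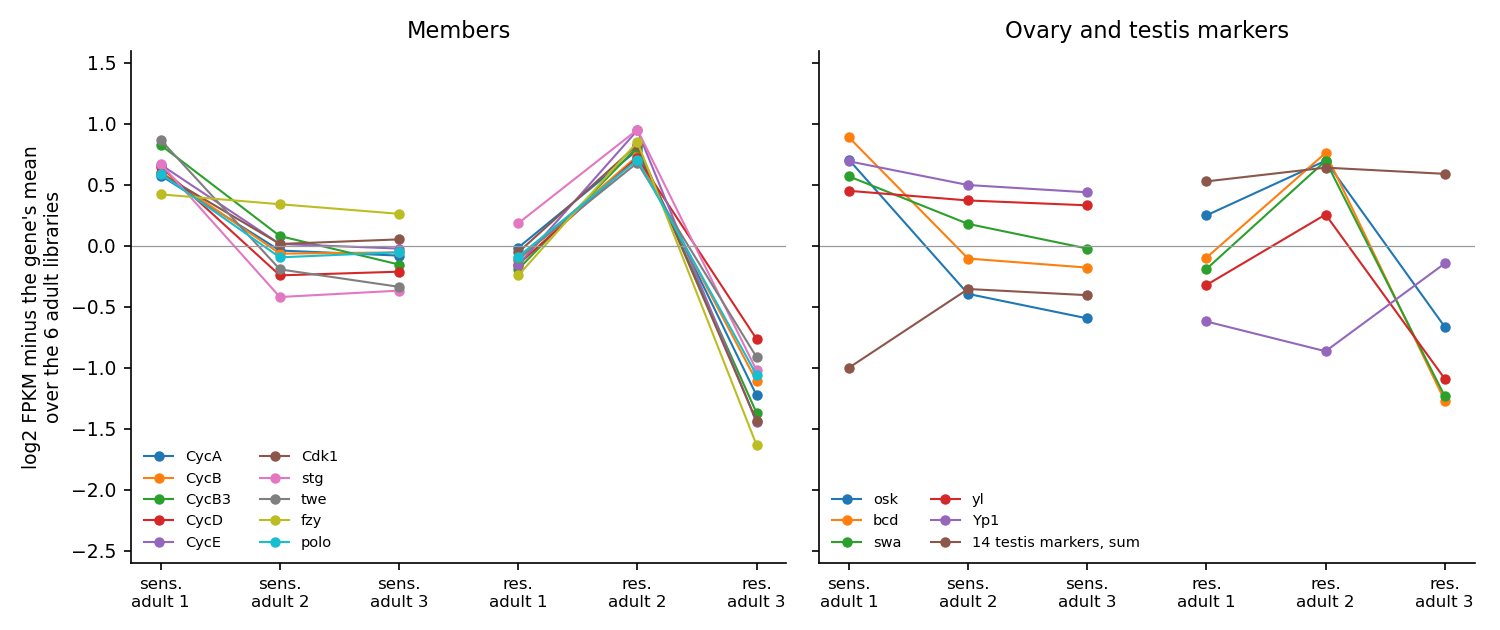
Log2 FPKM in each of the 6 adult libraries minus the gene's mean over them, for the 10 members (left) and for 5 ovary markers and the sum of 14 testis markers (right), where lines only join values of 1 gene within a strain. All members peak in sensitive replicate 1 and resistant replicate 2 and are lowest in resistant replicate 3, as do osk, bcd and swa, while Yp1 shares the peak in sensitive replicate 1 but not the resistant order, and the testis sum is lowest in sensitive replicate 1.

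The comparison of the strains in larvae asked which genes differ between resistant and sensitive animals. Of the 10 members 8 were called higher in resistant larvae, where 48.8% of all genes tested were. Of these, 2 (CycA and polo) were also called after scaling, where 1218 of 11055 genes were higher. The same 8 had larval groups that did not overlap, against 54.1% of genes. The all-gene median was 0.49, and after scaling 0.02. CycA stood 2.20 times and polo 2.12 times as high by group means, with log2 differences of 1.06 ± 0.16 and 1.04 ± 0.15 (adjusted p 0.00086653 and 0.000760338), or 0.53 and 0.50 after scaling (adjusted p 0.0308166 and 0.0439463). CycB3 and fzy had log2 differences of 1.02 each, and scaling left 0.51 and 0.49, which missed the threshold (adjusted p 0.0546275 and 0.0659956). The calls of stg, CycD, twe and CycB, at 0.88, 0.79, 0.74 and 0.69, were also lost after scaling (adjusted p 0.197499 to 0.545825). CycE and Cdk1 were not called, at 0.51 ± 0.24 and 0.14 ± 0.18 (adjusted p 0.0886609 and 0.500329).

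Among the log2 differences of all genes, CycA, polo, fzy and CycB3 lay at percentiles 87.4 to 89.7, or 84.8 to 87.0 after scaling. Cdk1 lay below the median of all genes on both scales, at percentiles 28.6 and 26.4. Disc, neuroblast and testis markers are set beside an all-gene share of 48.8% higher in resistant larvae, or 1218 of 11055 genes after scaling. Of 8 imaginal disc markers 7 were higher in resistant larvae, 4 of them after scaling, and their sum was 42.4 to 69.5 FPKM against 22.03 to 28.8 FPKM. All 6 neuroblast markers were higher, 0 of them after scaling, at sums of 16.6 to 22.6 against 8.36 to 9.54 FPKM. Of 12 tested testis markers 9 were higher, 0 after scaling, at sums of 208.1 to 263.2 against 132.3 to 162.8 FPKM. After scaling the median log2 differences were 0.54 for disc, 0.30 for neuroblast and 0.02 for testis markers, against 0.02 for all genes. The part of these tissues in the members' difference was not tested.

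In adults none of the 10 members was called between the strains by limma, where 19.9% of genes were, and 0 had an unadjusted p under 0.05. Log2 differences ran from -0.65 ± 0.49 for fzy to 0.08 ± 0.46 for stg, and 9 of 10 were below 0 (adjusted p 0.502134 to 0.957399). Without resistant adults replicate 3 the differences of CycA, CycB, CycB3, CycD, CycE, Cdk1, twe and polo turned to between 0.06 and 0.23. Without resistant adults replicate 2, fzy was called lower, at -1.23 (adjusted p 0.0391329). The SEs were 0.37 to 0.49. Of 13 ovary markers 3 were lower in this comparison, the yolk protein genes Yp1, Yp2 and Yp3, and the others were not called. Of 12 tested testis markers 6 were higher. Among all 11612 genes tested 459 were lower and 1850 higher. The part of these tissues was not tested.

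The test of whether the stage difference itself differed between the strains called fzy, at -1.67 ± 0.59, and polo, at -1.33 ± 0.46 (adjusted p 0.0467609 and 0.0423947), both smaller in the resistant strain. Among all genes 29.7% were called in this test, 19.7% as lower and 9.98% as higher. Neither call held after scaling, where the values were -1.26 and -0.91 (adjusted p 0.074452 and 0.0864515), and the all-gene median moved from -0.30 to 0.03. The other 8 members also had negative values, from -1.499 ± 0.58 for CycB3 to -0.56 ± 0.56 for Cdk1, and were not called. Leaving out 1 library gave 0 to 8 called members, the 8 without resistant adults replicate 2. None was called without any 1 of the 6 larval libraries, without sensitive adults replicate 1 or without resistant adults replicate 1.

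Other genes of the cell cycle were followed in 6 lists with 106 genes in the table. In the sensitive strain 91 of 102 tested were higher and 1 lower in adults, with a median of 1.40, and 71 of the 91 were also called after scaling. Of all genes tested 55.7% were higher in this comparison, or 3371 of 11644 after scaling. In the resistant strain 33 of 104 were higher and 4 lower, with a median of 0.54, and 27 of the 33 were called after scaling. That share, 31.7%, was below the 34.7% of all genes. Between larval strains 67 of 96 were higher and 0 lower, where 48.8% of all genes were higher. Only 11 of the 67 were called after scaling. They were 11.5% of those tested, near the share of all genes, 1218 of 11055. Between adult strains 1 of 102 was called. The signed stage difference, adult minus larva, was lower in the resistant strain for 21 of 104 and higher for 1, of which 9 and 1 were called after scaling. The 21 are near the background, since 19.7% of all genes were called lower in that test, or 960 of 12270 after scaling. The order of libraries seen in the members recurred in resistant adults in 93 of the 102 listed genes with a mean of at least 1 FPKM, against 43.6% of all such genes. In sensitive adults replicate 1 was highest for 87 of 102, against 48.8% of all such genes.

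Among meiosis genes 11 of 15 tested were higher and 1 lower in sensitive adults and 8 of 17 higher and 1 lower in resistant adults. Of all genes 55.7% and 34.7% were higher. With scaling 9 and 5 meiosis genes were higher and 1 lower in each strain, where 3371 of 11644 and 3396 of 12013 of all genes were higher. The gene gnu, a subunit of the PNG kinase that starts the embryonic divisions, rose from 0.917 ± 0.240 to 193.7 ± 5.5 FPKM in the sensitive strain and from 1.25 ± 0.23 to 188.6 ± 126.3 FPKM in the resistant one. The gene mtrm, whose product inhibits polo in the oocyte, rose from 0.293 ± 0.167 to 99.0 ± 25.2 FPKM in the sensitive strain and from 0.253 ± 0.219 to 90.8 ± 61.7 FPKM in the resistant one. In larvae bam, a switch of germline differentiation, was at 17.9 ± 1.9 FPKM in the resistant against 7.54 ± 3.76 FPKM in the sensitive strain, with a call without scaling only.

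Of the 14 genes of the anaphase promoting complex and its activators, 13 were higher in sensitive and 4 in resistant adults. Of all genes 55.7% and 34.7% were higher. With scaling 9 and 4 of the 14 were higher, where 3371 of 11644 and 3396 of 12013 of all genes were. The subunit APC7 rose by 4.34 and 3.82 and cort, the Cdc20 relative of female meiosis, by 3.56 and 2.83 on the log2 scale in the sensitive and the resistant strain. The subunit mr rose between the larval strains, from 4.05 ± 0.72 to 9.82 ± 0.69 FPKM. The only listed gene called between adult strains was fzr2, a Cdh1 relative expressed in the male germline, which rose from 7.84 ± 1.55 to 17.7 ± 0.8 FPKM (adjusted p 0.0116065), where testis markers were higher in 6 of 12 tested.

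A mixed list held 15 inhibitors, checkpoint kinases and other regulators, not all of which inhibit Cdk1. Of these, 13 were higher in sensitive and 5 in resistant adults, where 55.7% and 34.7% of all genes were. With scaling 10 were higher and 1 lower in sensitive adults, and 5 higher and 1 lower in resistant adults. On that scale 3371 of 11644 and 3396 of 12013 of all genes were higher. The checkpoint kinase lok, the fly Chk2, rose from 5.06 ± 0.19 to 87.5 ± 8.2 FPKM in the sensitive and from 9.75 ± 1.76 to 84.0 ± 58.2 FPKM in the resistant strain. The kinase gwl, which restrains the phosphatase opposing Cdk1, rose by 3.55 and 2.12 between the stages and by 1.11 between the larval strains on the log2 scale. Of 16 other cyclins and Cdks 14 were higher in sensitive adults, while 3 were higher and 1 lower in resistant adults. With scaling 6 were higher and 2 lower in sensitive adults, and 3 higher and 2 lower in resistant adults. The resistant count was below the share of all genes in both fits. CycJ, a cyclin of the female germline, rose by 3.58 and 3.02, and Cdk2 by 2.06 and 1.17. Cks85A, a small Cdk-binding subunit, rose between the larval strains from 13.2 ± 1.5 to 29.6 ± 5.1 FPKM.

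Of 22 genes of the spindle checkpoint, mitotic kinases and cytokinesis, 21 were higher in sensitive adults, and 2 were higher and 1 lower in resistant adults. Of all genes 55.7% and 34.7% were higher, so the resistant count lay below its background. With scaling 18 were higher in sensitive adults, and 1 was higher and 1 lower in resistant adults. On that scale 3371 of 11644 and 3396 of 12013 of all genes were higher. The kinase aurA rose by 1.80 and 1.35, and thr, a subunit of separase, had log2 differences of 2.08 and 0.89, the second lost after scaling. Mad1 of the spindle checkpoint rose between the larval strains by 1.13. Of 20 genes of S phase and E2F, 19 were higher in sensitive adults, and 11 were higher and 1 lower in resistant adults. With scaling 19 were higher and 1 lower in sensitive adults, and 9 higher and 1 lower in resistant adults. Orc1 of the origin recognition complex rose by 3.35 and 2.38 and RnrS, the small subunit of ribonucleotide reductase, by 2.26 and 2.02. Caf1-180, of the chromatin assembly factor at replication forks, rose between the larval strains from 2.13 ± 0.20 to 6.42 ± 1.63 FPKM.

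Across the 12 libraries the members followed each other, which describes libraries that share a stage and a strain and is no test. Pearson correlations of log2(FPKM + 1) between members were highest for CycA with CycB, at 0.989, and those of Cdk1 with the others were 0.623 to 0.823. The genes nearest to CycB3 were yem, CG2129, Rbf2, Caf1-105 and CG10903, at 0.995 to 0.998. The genes nearest to twe were CG1360, TMEM216, Cdk2, CG10494 and Caf1-105, at 0.983 to 0.989. For stg they were gro, Aatf, CG1602, CG10445 and mu2, at 0.979 to 0.991. Above 0.95 lay 633 of 12269 genes for CycB3, 259 for twe and 82 for stg.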

How the data were processed

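FPKM values with 2 decimals were deposited for all 12 libraries. Per the labels' protocols, TRIzol was used to extract total RNA from whole bodies, and a BGISEQ-500 to sequence it. FastQC 0.11.9, STAR, RSEM 1.3.3, edgeR 3.12 and dm6 are listed in the submitters' processing notes, without roles or settings. Current symbols from a table of gene names matched 13776 of 14001 identifiers, and coordinates are from an Ensembl annotation of dm6. Reads were estimated from 348 to 532 genes of 1 transcript per library, whose low values were in 90.6 to 96.3% of cases no more than 0.2 from a whole read, against 40% for evenly spread values. Replicates differed by more than sampling noise (chi-square per degree of freedom 8.00 to 139.4).

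The 4 comparisons used the 6 libraries of their groups, and the test of a differing stage effect used all 12. They were run with limma 3.58.1 in R 4.3.3 on log2(FPKM + 1), with trended prior variances and robust moderation, two-sided, with Benjamini-Hochberg adjustment over all genes tested and a threshold of 0.05. Genes needed 1 FPKM in at least 3 libraries of the fit. Fold changes on this scale understate those of low genes. "Rose" is written where both this fit and that after median-of-ratios scaling called a gene. The steps were tested on simulated data. Alternatives were that scaling, a common total of FPKM, no filter, a mean of at least 5 FPKM, a pseudocount of 0.1, a replicate block, 1 fit of all 12 libraries and each library left out.

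The members and lists were chosen with earlier results of these data known. Named beside the members are, per list, up to 2 genes called in each direction between stages in both strains and up to 1 per direction between strains, in each case with groups that do not overlap, and the 5 genes nearest in pattern to stg, twe and CycB3. Of the 111 listed pathway genes 106 were matched. Sequences were not used here.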

Additional observations from a re-analysis of the deposited data

Results flagged for a closer look

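The stage difference differed between the strains for fzy and polo by the test of the difference itself. That share, 2 in 10 members, is near the background, since 19.7% of all genes were called lower. No member was called after scaling, with no filter, or without any 1 larval library. For fzy the log2 stage effect of the resistant strain minus that of the sensitive strain was -1.67, and for polo it was -1.33. Sensitive adults were above sensitive larvae in 3 of 3 libraries for both genes. Among resistant adults replicate 3, at 11.37 FPKM for fzy and 29.21 FPKM for polo, lay below all 3 resistant larvae. Without that library the values were -1.05 for fzy and -0.89 for polo.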

How the results depend on the processing

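The values followed here mix member log2 differences, counts of calls and shares. A log2 difference stayed the same if it kept direction and side of the threshold. A count stayed the same within a ratio of 1.5, and a share within the larger SD of the groups compared. Settings other than leaving out a library left 382 values the same, while 3 turned, 7 moved, 4 passed the threshold anew and 18 no longer passed it. Median-of-ratios scaling moved the share of higher calls among all called genes from 80.8% to 52.7% and from 66.5% to 53.1% between stages in the sensitive and resistant strain. It moved that share from 83.2% to 36.4% between larval strains, from 80.1% to 70.7% between adult strains and from 33.6% to 66.7% for the difference of the stage effects. Between larval strains it left 3342 genes and 2 members called, against 6484 and 8, and 1 fit of all 12 libraries left 4 members. It turned the log2 difference of Cdk1 to -0.055 between resistant stages and to -0.40 between larval strains, and that of stg to -0.059 between adult strains. For the difference of the stage effects 0 members were called with scaling, 4 with a common total of FPKM, 0 with no filter and 1 with a pseudocount of 0.1. The cause was not tested.

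With 1 library left out, 400 values stayed the same by the rules above, 19 turned, 22 moved, 13 passed the threshold anew and 26 no longer passed it. The members called ran from 3 to 10 between resistant stages, from 0 to 1 between adult strains and from 0 to 8 for the difference of the stage effects. The genes called ran from 497 to 2282 between adult strains and from 2117 to 4730 for the difference of the stage effects. Between resistant stages the log2 difference ran from -0.057 to 0.63 for CycD, from -0.28 to 0.80 for Cdk1 and from -0.093 to 1.10 for fzy. Between adult strains it ran from -0.77 to 0.23 for CycA, -0.77 to 0.15 for CycB, -1.001 to 0.058 for CycB3, -0.48 to 0.21 for CycD and -0.97 to 0.17 for CycE. There it ran from -0.91 to 0.16 for Cdk1, -0.36 to 0.59 for stg, -0.57 to 0.16 for twe and -0.71 to 0.16 for polo. The difference of the stage effects ran from -1.06 to 0.019 for Cdk1. The strain difference of the twe share in larvae ran from -1.66 to 0.80 percentage points. The lowest of these member log2 differences came without resistant adults replicate 2 and the highest without resistant adults replicate 3.

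In the replicate pairing, numbers recur across groups, but same-numbered libraries did not deviate together (correlations -0.26 to 0.20, over 0.1 in 4 of 12 pairs, highest with the own number in 5 of 12). With the replicate number as a block, 10, 5, 8 and 0 members were called in the 4 comparisons and 3 for the difference of the stage effects, the third being CycB3 (adjusted p 0.0407813).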
